A study of Mus musculus with 18 samples.

Results

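Marco, Msr1, Cd163, Mrc1, Stab1, Cd68, Adgre1 and Csf1r are receptors and surface or lysosomal proteins by which macrophages are recognised and with which they take up particles, modified proteins and dying cells. These 8 genes were chosen by name, as all probe sets annotated to exactly 1 gene with 1 of these symbols, and they make up 8 of the 18193 genes that have such a probe set and 14 of 34945 such probe sets. All 8 were among the 12877 genes tested. They were followed through colitis-associated carcinogenesis in the mouse colorectum, on 18 whole-genome Affymetrix arrays in 6 groups of 3 biological replicates.

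All animals were male mice of the outbred ICR stock, 6 weeks old at the start. Inflamed mucosa was taken on day 14 (2 weeks) from mice given azoxymethane (AOM), a colon carcinogen, by intraperitoneal injection at 10 mg/kg on day 1 and dextran sulphate sodium (DSS), which damages the colonic epithelium, at 2% in drinking water from day 8 to day 14. Low grade dysplasia (LGD) came from day 28 (4 weeks) of the same course. High grade dysplasia (HGD) came from day 42 (6 weeks), after a second DSS period at 1.5% on days 29 to 33. High grade dysplasia with active inflammation came from day 56 (8 weeks), after DSS at 1.5% again on days 50 to 54, and carcinoma from day 140 (20 weeks) with no further DSS. Normal mucosa came from mice given saline in place of AOM and plain water, and was taken on day 14. Groups given AOM alone or DSS alone were not analysed here, so the agents cannot be told apart, and every later stage is also older than the normal mice. The titles call the replicates biological without tying them to single animals.

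Tissue macrophages of the gut descend largely from blood monocytes and depend on the growth factor CSF1 and its receptor. Scavenger receptors are a loose family of such proteins that bind oxidised or acetylated lipoproteins, bacteria, sugars or haemoglobin and carry them into the cell. Which of them a macrophage displays differs with its tissue and state, so the 8 genes need not move together.

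Marco and Msr1 encode class A scavenger receptors, Cd163 the receptor for haemoglobin bound to haptoglobin, Mrc1 the mannose receptor (CD206) and Stab1 stabilin-1, which clears extracellular debris and is also made by lymphatic and sinusoidal endothelium. Cd68 encodes a glycoprotein of late endosomes and lysosomes, Adgre1 the adhesion receptor F4/80, and Csf1r the tyrosine kinase that receives CSF1 and IL34.

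RefSeq promoters (build GRCm38.p6) were available for 5 of the 8 genes, Marco, Cd163, Mrc1, Cd68 and Stab1; Msr1, Adgre1 and Csf1r had none in that table. The 250 bases before the promoter table's start site are shown for 4 of them, because their genes gave the largest change at 2 weeks (Marco), the opposite pattern afterwards (Cd163), and an intermediate course (Mrc1 and Cd68). Capitals mark matches on either strand to the core bound by PU.1, the lineage factor of macrophages (GAGGAA), to an AP-1 site (TGANTCA), to a C/EBP-like site (TTGCNNAA) or to an IRF-like site (the word GAAA, 2 free bases and GAAA again).
Marco (chr1:120505025-120505274, minus strand): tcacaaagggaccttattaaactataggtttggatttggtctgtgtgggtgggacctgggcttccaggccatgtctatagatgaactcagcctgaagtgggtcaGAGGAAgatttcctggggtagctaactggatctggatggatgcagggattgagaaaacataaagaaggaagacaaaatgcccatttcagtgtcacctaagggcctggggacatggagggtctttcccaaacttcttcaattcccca
Cd163 (chr6:124304401-124304650, plus strand): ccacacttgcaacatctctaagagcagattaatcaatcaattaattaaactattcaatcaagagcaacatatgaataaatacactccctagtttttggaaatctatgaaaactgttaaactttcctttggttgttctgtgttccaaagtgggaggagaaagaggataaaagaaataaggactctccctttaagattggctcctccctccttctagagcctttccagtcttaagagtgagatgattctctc
Mrc1 (chr2:14229164-14229413, plus strand): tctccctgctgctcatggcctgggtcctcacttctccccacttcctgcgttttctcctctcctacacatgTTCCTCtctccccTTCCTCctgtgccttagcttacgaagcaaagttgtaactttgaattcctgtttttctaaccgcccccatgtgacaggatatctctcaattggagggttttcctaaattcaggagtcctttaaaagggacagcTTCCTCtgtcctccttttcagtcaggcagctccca
Cd68 (chr11:69666171-69666420, minus strand): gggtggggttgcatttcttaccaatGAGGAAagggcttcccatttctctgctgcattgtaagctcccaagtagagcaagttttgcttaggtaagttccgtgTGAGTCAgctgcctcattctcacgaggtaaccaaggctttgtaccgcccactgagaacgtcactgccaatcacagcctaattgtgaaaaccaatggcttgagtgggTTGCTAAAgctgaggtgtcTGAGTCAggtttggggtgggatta
The PU.1 core stood in 4 of the 5 promoters, all but that of Cd163, and in 23.1% of the 27025 promoters of the same length in the table. Mrc1 held 3 matches, at 180, 167 and 35 bases before the start, and Marco 1, at 146 bases. Cd68 held 1 PU.1 core, 2 AP-1 sites at 149 and 24 bases and 1 C/EBP-like site at 43 bases, whereas no other of the 5 promoters held an AP-1 or C/EBP-like match, with 6.87% and 9.55% of all promoters holding one. The IRF-like letters stood in 0 of the 5 and in 3.04% of all promoters. The start site can lie downstream of the first base of the gene in RefSeq's gene table, so the last 15 bases shown for Cd163 lie inside the gene. No match overlapped another, and a match describes letters in this window and not binding.

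At 2 weeks, all 8 genes were higher in inflamed mucosa than in normal mucosa, and for all 8 the 3 inflamed arrays lay above the 3 normal arrays. By limma with Benjamini-Hochberg adjustment over all genes, 22.6% of the 12877 genes were called higher and 24.3% lower in the same comparison, and 29.3% of genes had their 3 inflamed arrays above the 3 normal ones. The median change of the 8 was 2.69 on the log2(signal + 16) scale, against 0.01 over all genes tested. Marco passed the filter on low values only through its 3 inflamed arrays (0 of the other 15 lay above the table's median signal). It therefore had to differ, and its place in that count is no evidence. The median of 2.69 includes Marco, the largest of the 8 changes. The other members ran from 1.18 (Csf1r) to 3.36 (Cd163). Changes on this scale understate those of dim genes, and in tissue RNA more macrophages and more RNA per macrophage cannot be told apart.

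**Figure D1:**
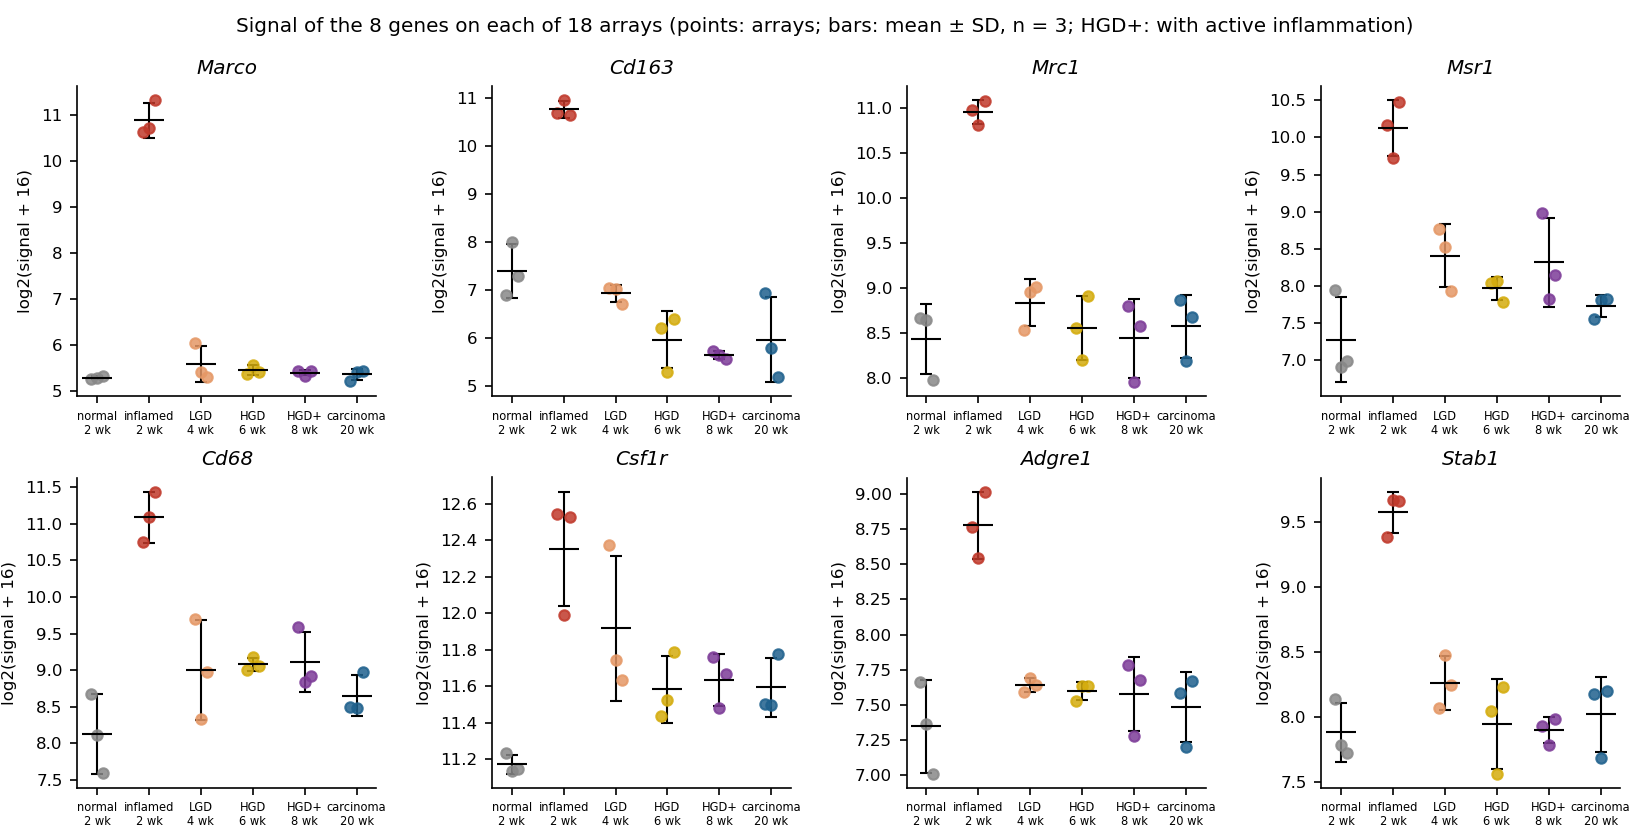
Signal of each gene's probe set as log2(signal + 16) on the vertical axis, with 1 point per array and the mean ± SD of the 3 arrays of each group. The stages run from normal mucosa at the left to carcinoma, and the inflamed group stands highest in all 8 panels. Cd163 is the panel in which the later stages lie below normal mucosa.

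Marco, the receptor that binds bacteria and particles on macrophages of body linings and lymphoid organs, showed the largest change of the 8. Its signal was 1575, 1664 and 2561 in inflamed mucosa, against 22.3, 22.5 and 23.9 in normal mucosa. The 3 inflamed arrays stood alone, since no array of any other group passed 49.8. The difference was 5.61 on the log2(signal + 16) scale, given as a description with no test because the filter admitted the gene through these arrays. A second probe set of the gene gave 2.77, also a description. It too passed the filter only through the 3 inflamed arrays, with 0 arrays above the table's median signal elsewhere.

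Marco then stood near its normal signal at every later stage. LGD arrays read 49.8, 26.5 and 23.3, HGD arrays at 6 weeks 24.9, 31.5 and 26.5, HGD arrays at 8 weeks 26.8, 24.1 and 27.1, and carcinomas 21.3, 26.5 and 27.3. Only LGD replicate 1 reached 49.8, and no comparison of a later stage with normal mucosa was called (adjusted p from 0.332 to 0.870). All these signals lie below the table's median of 56.6, and detection calls were not used here, so whether the gene was detected in them is unknown.

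Msr1, the class A receptor first known for binding modified low-density lipoprotein, had signals of 1131, 831 and 1414 in inflamed mucosa, against 229, 103 and 111 in normal mucosa. The groups were far apart, with a change of 2.85 ± 0.32 (adjusted p = 1.03e-05). Its 4 probe sets gave changes between 1.38 and 2.85 and all passed. At later stages the signal was 417, 352 and 228 in LGD, 247, 252 and 205 in HGD at 6 weeks, 488, 210 and 268 in HGD at 8 weeks and 172, 209 and 210 in carcinoma. In LGD the change from normal mucosa was 1.13 ± 0.32 and just missed the threshold (adjusted p = 0.0512), and at 8 weeks it was 1.04 ± 0.32 and just passed (adjusted p = 0.0488). The arrays overlapped those of normal mucosa in both cases, through normal replicate 1 at 229. The call at 8 weeks was lost in 4 of the 6 fits that left out an array of those groups, with a change as low as 0.71 (adjusted p = 0.124) without HGD replicate 1, and it was not called at 0.62 when the 4 probe sets were averaged; the other 3 probe sets gave 0.27 to 0.83 and did not pass.

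Cd163 was the exception among the 8. Its signal was 1621, 1967 and 1588 in inflamed mucosa, against 103, 241 and 142 in normal mucosa, a change of 3.36 ± 0.38 (adjusted p = 1.10e-05). Group means of the later stages lay below that of normal mucosa. LGD read 116, 115 and 89.1, HGD at 6 weeks 57.8, 23.0 and 68.0, HGD at 8 weeks 37.4, 34.0 and 31.6, and carcinoma 106, 39.2 and 20.4. All 6 HGD arrays lay below all 3 normal arrays, while LGD replicates 1 and 2 and carcinoma replicate 1 lay within the normal range.

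In HGD at 8 weeks the lower signal passed the test, at −1.75 ± 0.38 (adjusted p = 0.0146). The mean signal was 34.4 in HGD at 8 weeks, against 162 in normal mucosa, and the 8-week signals of 31.6 to 37.4 lie below the table's median of 56.6, where detection is unknown, so the size of the fall is not well measured. The changes in HGD at 6 weeks (−1.44, adjusted p = 0.0761) and in carcinoma (−1.43, adjusted p = 0.0805) did not pass, although they ranked as the 40th and the 32nd lowest of 12877. The call at 8 weeks rests on normal replicate 2, the brightest normal array at 241: without it the change was −1.44 and was not called (adjusted p = 0.0720). Leaving out carcinoma replicate 1, which read 106, gave −1.91 in carcinoma and a call (adjusted p = 0.0167).

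**Figure D2:**
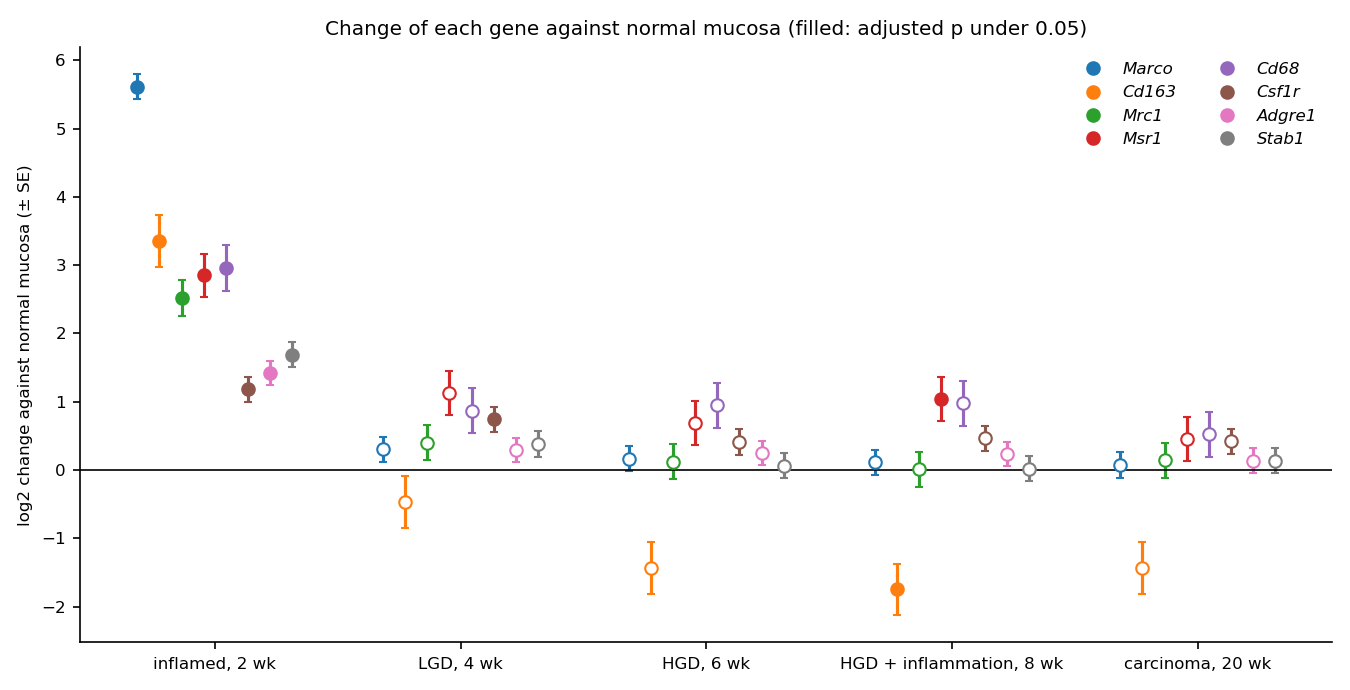
Log2 change of each gene against normal mucosa (vertical axis, ± SE) at the 5 stages in order of time, filled where the limma adjusted p was under 0.05. All 8 points are filled and above 1 in inflamed mucosa, where Marco had to differ because its inflamed arrays admitted it. At 8 weeks Cd163 is filled at −1.75 while Msr1 is filled at 1.04.

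To see how far Cd163 departed from the other 7 genes, its deviation from normal mucosa was set against their mean deviation on each array, a measure chosen after the values were seen and given with no test. In inflamed mucosa Cd163 stood 0.75 above them on the log2 scale (arrays 0.39 to 1.12), with replicate 3 at 0.39 inside the span of the normal arrays. The difference was −1.06 in LGD (arrays −1.15 to −0.89), −1.82 in HGD at 6 weeks (−2.43 to −1.48), −2.16 in HGD at 8 weeks (−2.34 to −1.89) and −1.70 in carcinoma (−2.65 to −0.73). Normal arrays spanned −0.80 to 0.65, so carcinoma replicate 1 was the only array after 2 weeks inside the normal span.

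Mrc1, the mannose receptor, had signals of 2003, 1777 and 2135 in inflamed mucosa, against 393, 383 and 237 in normal mucosa. The change was 2.52 ± 0.26 (adjusted p = 4.94e-06). Every later array fell between 232 and 500, and the changes from normal mucosa lay between 0.01 and 0.40, none of them called. Stab1 followed the same course at 653, 797 and 793 in inflamed mucosa, against 266, 204 and 195 in normal mucosa. Its change was 1.69 ± 0.19 (adjusted p = 9.16e-06), and later arrays read 173 to 339. For both genes the only departure among later stages was a slightly raised LGD group, which did not pass (Mrc1 0.40, adjusted p = 0.352; Stab1 0.38, adjusted p = 0.225).

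Cd68, the lysosomal marker, had signals of 1697, 2157 and 2753 in inflamed mucosa, against 394, 261 and 177 in normal mucosa, a change of 2.96 ± 0.33 (adjusted p = 1.03e-05). It stayed above the normal mean afterwards: LGD read 815, 306 and 488, HGD at 6 weeks 496, 562 and 519, HGD at 8 weeks 751, 440 and 467 and carcinoma 346, 341 and 489. All HGD arrays lay above all normal arrays, yet the changes of 0.95 at 6 weeks (adjusted p = 0.141) and 0.98 at 8 weeks (adjusted p = 0.0650) were not called. Adgre1, the F4/80 marker, had the narrower change of 1.43 ± 0.18 (adjusted p = 2.24e-05), with signals of 419, 357 and 501 in inflamed mucosa, against 187, 149 and 113 in normal mucosa. Later Adgre1 signals of 131 to 204 overlapped those of normal mucosa at every stage.

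Csf1r, the growth factor receptor, changed least in log2 terms. Its signal was 5949, 4059 and 5881 in inflamed mucosa, against 2389, 2233 and 2254 in normal mucosa. The change was 1.18 ± 0.18 (adjusted p = 1.29e-04), and its 3 probe sets gave 0.99 to 1.42, all called. LGD followed at 5288, 3418 and 3156, HGD at 6 weeks at 2757, 2929 and 3525, HGD at 8 weeks at 3453, 2841 and 3232, and carcinoma at 2885, 2879 and 3493. All 12 later arrays lay above all 3 normal arrays. In LGD the change of 0.74 ± 0.18 passed (adjusted p = 0.0341), the only call among the 8 genes at that stage, where 2.61% of all genes were called higher and 3.08% lower, and 16.3% had their 3 LGD arrays above the 3 normal ones. That call was lost when any 1 of the 3 normal arrays, LGD replicate 1 or LGD replicate 2 was left out, being 0.52 (adjusted p = 0.133) without LGD replicate 1, and the 2 other probe sets of Csf1r gave 0.75 (adjusted p = 0.0698) and 0.34 (adjusted p = 0.241).

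Set in order of group means, inflamed mucosa was highest for all 8 genes. The step down to the next group passed the test for 7 genes, and for Csf1r it did not, LGD being 0.44 below inflamed mucosa (adjusted p = 0.0778). No other pair of neighbours in any of the 8 orders differed past the threshold. Normal mucosa came last for 7 genes and second for Cd163, whose lowest group was HGD at 8 weeks.

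Between 2 and 4 weeks the signals dropped. LGD was lower than inflamed mucosa for 7 of the 8 genes, where 17.0% of all genes were called lower. Apart from Marco, their changes ran from −1.13 to −3.83. Marco had to differ by the filter, and its −5.31 is a description. All 8, Marco again by the filter, were lower than inflamed mucosa in HGD at 6 weeks (20.6% of all genes lower), in HGD at 8 weeks (18.4%) and in carcinoma (21.2%). Among the later stages 0 of the 8 genes and 0 of 12877 genes (0.00%) were called by limma in HGD at 6 weeks against LGD, in HGD at 8 weeks against HGD at 6 weeks, or in carcinoma against HGD at 8 weeks. At an unadjusted p under 0.05 those comparisons held 900, 423 and 1422 genes, of which Cd163 in HGD at 6 weeks against LGD (−0.97, adjusted p = 0.624) was the only member.

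Against normal mucosa, HGD at 6 weeks gave 0 calls among the 8 by limma (1.14% of all genes in either direction; 4 members at an unadjusted p under 0.05), and carcinoma gave 0 (0.901%; 2 members). At 8 weeks Msr1 was called higher (4.84% of all genes) and Cd163 lower (6.42%). Arrays that did not overlap those of normal mucosa were found, on the higher side, for Marco, Cd68 and Csf1r at 6 weeks (17.6% of all genes) and at 8 weeks (15.5%), and for Csf1r alone in carcinoma (14.4%). On the lower side they were found for Cd163 alone at 6 weeks (17.4%) and at 8 weeks (17.9%). A moderated F test over the 6 groups called all 8 genes, Marco by the same filter, and 45.3% of all genes.

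The third DSS period ended 2 days before the 8-week samples, which are labelled as actively inflamed, and the first ended on the day of the 2-week samples. The 8 genes did not repeat their first rise. From HGD at 6 weeks to HGD at 8 weeks their changes lay between −0.31 (Cd163) and 0.35 (Msr1). The difference between the 2 changes, inflamed minus normal and HGD at 8 weeks minus HGD at 6 weeks, was tested as 1 contrast that shares no array between its sides. It was called for the 7 genes other than Marco, where 11.2% of all genes were called in that direction, with Cd163 at 3.67 ± 0.54 and Csf1r at 1.13 ± 0.26 as the extremes (adjusted p = 6.23e-04 and 0.00788). Marco, admitted by its inflamed arrays, had to differ here and in every comparison with inflamed mucosa, and its difference of 5.67 is a description. DSS dose, its timing before sampling, age and the tissue itself also differ between the 2 phases and cannot be told apart.

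**Figure D3:**
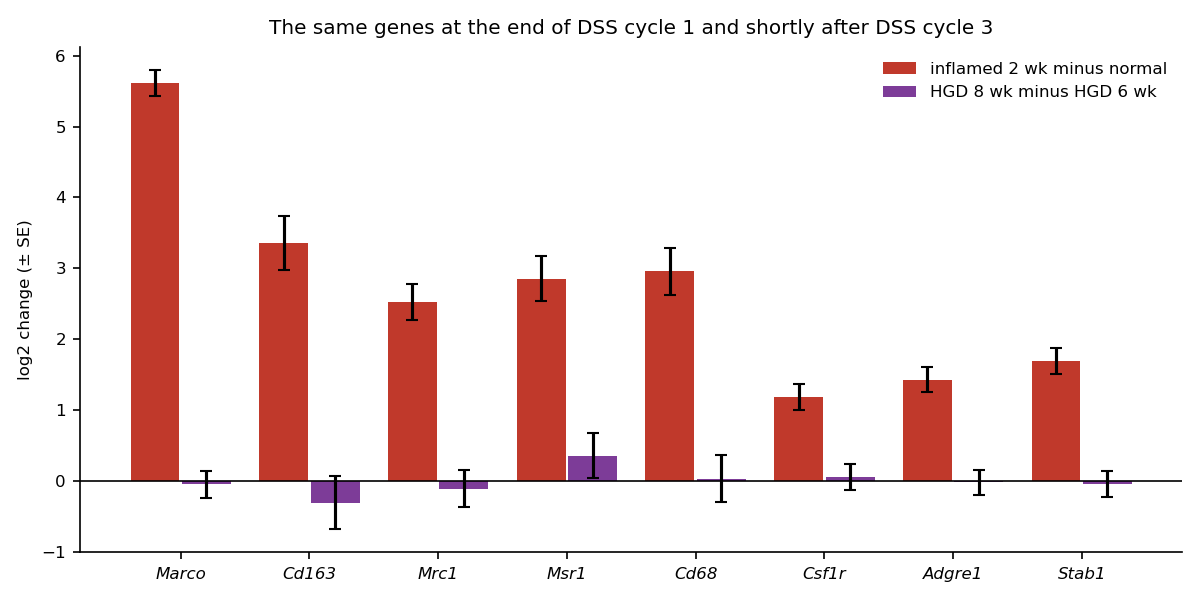
Log2 change (vertical axis, ± SE) of each gene at the end of the first DSS period (inflamed minus normal mucosa) and after the third (HGD at 8 weeks minus HGD at 6 weeks). The first bars run from 1.18 for Csf1r to 5.61 for Marco, and the second bars from −0.31 to 0.35.

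Neutrophil genes differed widely between arrays of 1 stage. The summed signal of 9 neutrophil genes, among them S100a8 and S100a9 (calprotectin), was 32868, 57326 and 61524 in inflamed mucosa, against 430, 361 and 500.2 in normal mucosa. It was 55399, 6163 and 924 in LGD, 4104, 9259 and 2831 in HGD at 6 weeks, 24088, 1606 and 12545 in HGD at 8 weeks and 1016, 9503 and 3819 in carcinoma. LGD replicate 1 thus lay within the inflamed range of neutrophil signal, yet its Marco and Cd163 signals were 49.8 and 116, against at least 1575 and 1588 on every inflamed array. In that array Csf1r (5288) lay inside the inflamed range and Cd68 (815) and Msr1 (417) lay between the inflamed and the normal ranges. Mrc1 (355), Stab1 (252) and Adgre1 (177) lay inside their normal ranges. The part of the neutrophil genes in the LGD values was not tested.

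Other cell types moved at 2 weeks with the 8 genes, in a comparison that called 22.6% of all genes higher and 24.3% lower. All 15 epithelial genes were lower in inflamed mucosa, with summed signals of 40602, 1451 and 15674, against 78294 to 82205 in normal mucosa. All 8 blood endothelial and all 6 fibroblast genes and 4 of 5 lymphatic endothelial genes were higher, led by Emcn (2.51), Col1a1 (2.00) and Pdpn (2.80). Lyve1, a lymphatic marker that some macrophages share, was 1.72 higher (adjusted p = 0.00123), and it is named here because Stab1 is made by both cell types. Of 5 dendritic cell genes 2 were higher, Batf3 (1.23) and Flt3 (0.61). By limma 0 of 7 mast cell, 0 of 5 T cell, 0 of 4 B and plasma cell and 0 of 6 smooth muscle genes were called, with 0, 1, 0 and 1 of them at an unadjusted p under 0.05, and Ptprc, carried by all leukocytes, was 0.94 higher and not called (adjusted p = 0.106). How far a changed mix of cells contributes to the 8 genes was not tested.

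The growth factor side of the pathway rose in inflamed mucosa. Of the CSF1R ligand and colony-stimulating factor list, 5 of 5 measured genes were called higher, as were 22.6% of all genes. Csf1 and Il34, the 2 ligands of CSF1R, rose by 0.94 and 0.83 and are named after their values were seen; the largest changes were those of Csf3 (4.28), the neutrophil growth factor, and Csf2rb (2.72), the shared receptor chain for GM-CSF. Of 7 transcription factors of macrophages, 4 were higher, led by Cebpb (3.05) and Spi1 (1.60), which encodes PU.1. Irf8, a factor of monocyte development, changed by 0.09 (adjusted p = 0.855) and is named after its value was seen.

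Of 12 other scavenger receptors measured, 10 were higher in inflamed mucosa and 0 lower, against 22.6% and 24.3% of all genes. Scara5, a ferritin receptor of stromal cells, rose by 3.06, the fungal sugar receptor Clec7a by 2.62 and Colec12 by 2.05. Of 20 other macrophage and monocyte markers, 16 were higher and 0 lower, led by Itgam (2.91), Gpnmb (2.90) and Tyrobp (2.65). The 4 that were not called were Cd14 (0.44), Ctss (0.23), Mertk (0.14) and Cx3cr1 (0.06), the last 2 being genes typical of resident gut macrophages. These 4 are named because they are the whole remainder of the list.

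Cd163 takes up haemoglobin together with haptoglobin, and the genes of that route were examined as a list. In inflamed mucosa 4 of 7 were called higher and 2 lower, against 22.6% and 24.3% of all genes. Hp, haptoglobin itself, was 6.71 ± 1.09 higher, Hmox1, which breaks down haem, 3.45 ± 0.26, and Slc11a1, an iron transporter of phagosomes, 2.52 ± 0.28. Slc40a1, the iron exporter ferroportin, was 1.53 lower and Tfrc, the transferrin receptor, 0.59 lower, both named after their values were seen. Of 13 genes listed as activation products of macrophages, 8 were higher and 1 lower. Chil3 (7.74), Arg1 (4.31) and Il1b (4.01) stood at the top, and Mgl2 (−0.95), a lectin that binds galactose sugars, was the 1 that fell. Which cells made the products of these 2 lists is not known from tissue RNA. Neutrophil genes rose on the same arrays, and their part was not tested.

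At 8 weeks, macrophage genes outside the 8 moved in both directions against normal mucosa, as Cd163 and Msr1 did. Those 2 calls were each lost when certain single arrays were left out, which gave 333 to 2202 called genes in this comparison. The summed signal of the 20 markers was 36381, 21483 and 29709, against 19169 to 25295 in normal mucosa. HGD replicate 2 thus lay inside the normal range of that sum. Of the 20 markers 9 were called higher, as were 4.84% of all genes. Among the 9 were Gpnmb (1.54 ± 0.33), Tyrobp (1.40 ± 0.37), Mpeg1 (1.13 ± 0.24), Aif1 (1.12 ± 0.30), Sirpa (0.84 ± 0.20) and C1qc (0.73 ± 0.20). Called lower, as were 6.42% of all genes, were Mertk (−0.98 ± 0.23), a receptor for dying cells, and Folr2 (−0.95 ± 0.26), a folate receptor of resident macrophages. Outside that list Slc40a1 (−1.02, adjusted p = 0.0288) and Retnla (−1.66, adjusted p = 0.0306), a product of alternatively activated macrophages, were also lower, and Csf1 (0.54, adjusted p = 0.0467) and Clec7a (1.81) higher. Mertk, Folr2, Slc40a1, Retnla, Mpeg1, Aif1, Sirpa, C1qc and Csf1 were chosen for this paragraph after their values were seen. Markers of other cells moved here too: S100a8 (5.70) and S100a9 (5.55) were higher and the smooth muscle gene Cnn1 (−1.44) lower, and their part was not tested.

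**Figure D4:**
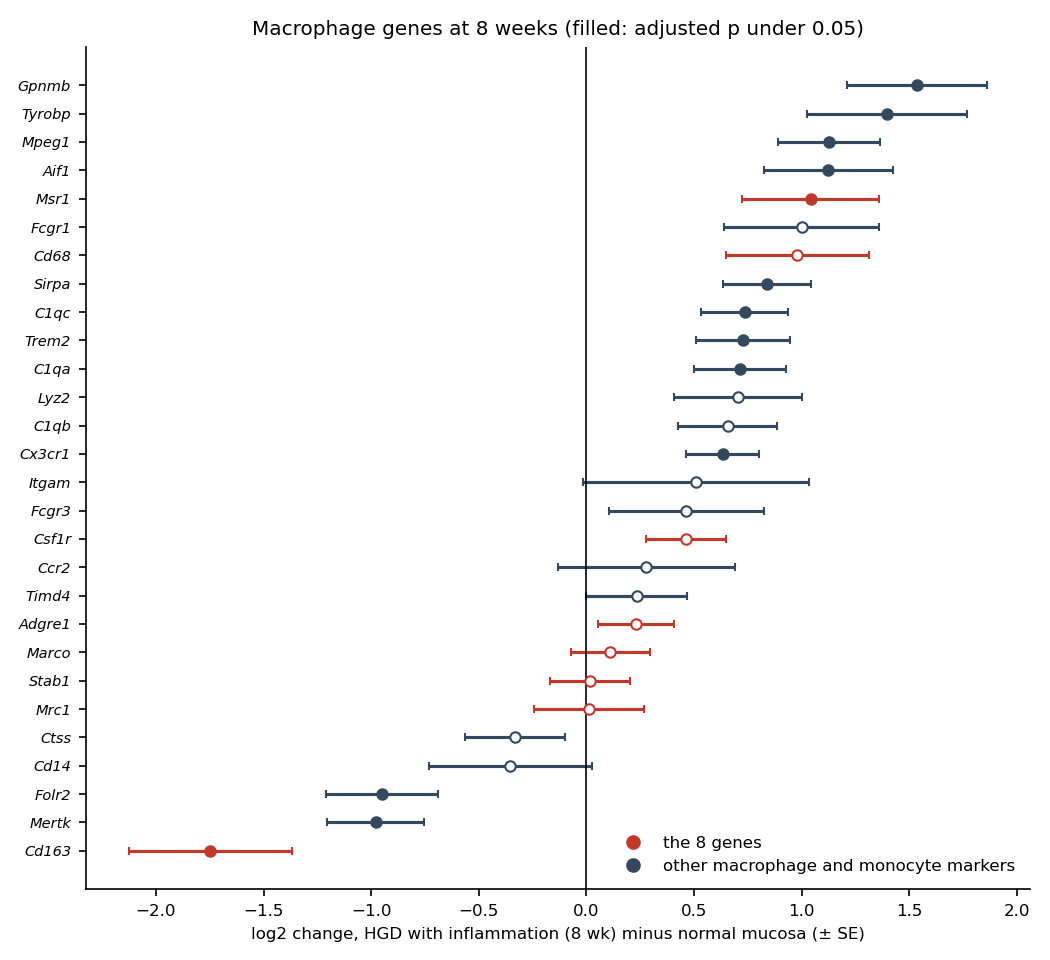
Log2 change (horizontal axis, ± SE) in HGD with active inflammation at 8 weeks against normal mucosa for the 8 genes (red) and 20 other macrophage and monocyte markers (blue), sorted by size and filled where the limma adjusted p was under 0.05. Gpnmb stands at the top at 1.54 and Cd163 at the bottom at −1.75, with Mertk and Folr2 next to it.

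In LGD, 3 of the 20 other markers were called higher and 0 lower, where 2.61% and 3.08% of all genes were. In HGD at 6 weeks 2 were called higher and 0 lower, where 1.14% of all genes were called in either direction. Mpeg1, which encodes the pore-forming protein perforin-2, was called at both (1.19 and 1.11) and is named after its values were seen. In carcinoma 0 of 20 other markers (6 at an unadjusted p under 0.05) and 0 of 12 other scavenger receptors (3) were called by limma. Of all genes 0.901% were called there.

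Not all of the 8 genes varied together once the inflamed arrays were set aside. Over the 15 arrays of the other 5 groups the 28 pairs had Pearson r between −0.51 and 0.82, with a median of 0.32; these are descriptions over arrays that share groups, with no test. Mrc1 and Stab1 kept closest (r = 0.82, Spearman rho 0.83; r = 0.84 without the 2 arrays farthest from the median of Mrc1). Msr1, Cd68 and Csf1r formed another set (r = 0.75 to 0.78 between them, rho 0.55 to 0.68), for which leaving out the 2 farthest arrays gave 0.61 to 0.74. Adgre1 ran with both, at r = 0.76 with Mrc1, 0.60 with Stab1, 0.67 with Msr1 and with Cd68 and 0.51 with Csf1r. Its rho with these genes was 0.40 to 0.68, and leaving out the 2 farthest arrays gave 0.34 to 0.65. Marco ran with Csf1r (r = 0.81, rho 0.71), at 0.60 without the 2 farthest arrays. Marco and Cd163 gave r = −0.12 and rho −0.53, and −0.72 without the 2 farthest arrays. All 15 of these Marco signals lie below the table's median signal, where detection is unknown. Cd163 was negatively related to Cd68 (r = −0.51, rho −0.48; −0.41 without 2 arrays) and Msr1 (r = −0.39, rho −0.31; −0.23). Taking each array's deviation from its group mean over all 18 arrays, Mrc1 and Stab1 gave r = 0.73 and Cd163 and Cd68 r = −0.24.

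**Figure D5:**
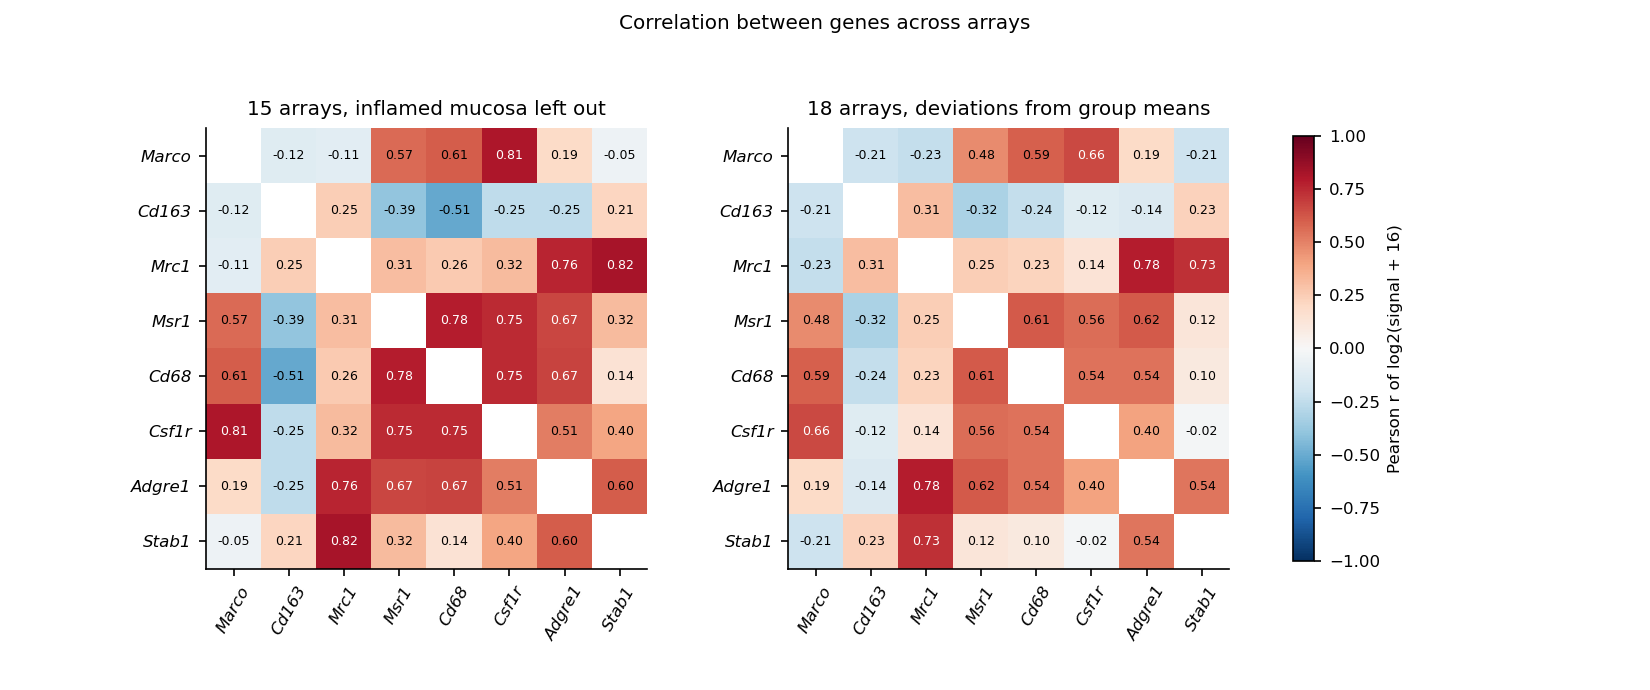
Pearson r of log2(signal + 16) for each pair of the 8 genes, over the 15 arrays without inflamed mucosa (left) and over deviations from group means on all 18 arrays (right). At the left r is 0.60 to 0.82 between Mrc1, Adgre1 and Stab1 and 0.75 to 0.78 between Msr1, Cd68 and Csf1r. These are not separate blocks, since Adgre1 also has r of 0.67 with Msr1 and Cd68 and 0.51 with Csf1r. The row of Cd163 is below 0 except with Mrc1 and Stab1.

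Over all 18 arrays, the tested genes whose signal ran most like each member were listed by Pearson r, 3 for each, as a description in which the inflamed arrays lie apart from the rest. Marco ran closest to Mrap (r = 0.99), Orm2 (0.99) and Aoah (0.98), and Cd163 to Hspb8 (0.98), Ppp1r12c (0.97) and Slc7a14 (0.97). Mrc1 and Stab1 shared Chst15 among their 3 (0.96 each), with Gpr146 and Slc10a6 for Mrc1 and Cacna1d and Cyth3 for Stab1. Msr1 ran with Ctps, Ehd1 and Selp (0.97 each), and Cd68 with Lpgat1, Ebi3 and Milr1 (0.97). Known macrophage genes stood in the lists of Csf1r, with Fcgr4 (0.95), Sirpa (0.94) and Pik3r6 (0.93), and of Adgre1, with Ms4a7 (0.96), Cmklr1 (0.95) and C1qc (0.95).

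Array medians were even, Gapdh 3′ to 5′ ratios were even apart from 1 array, and the 18S ribosomal RNA control was lower in inflamed mucosa. The median signal of the arrays ran from 55.7 to 57.8, and 0 of 153 pairs of arrays held identical signals for most probe sets. LGD replicate 2 had a 3′ to 5′ log2 ratio of Gapdh of 1.63, against −0.08 to 0.16 on the other 17. Without it Csf1r was 0.83 higher in LGD than in normal mucosa (limma adjusted p = 0.0677). The 18S ribosomal RNA control, on the log2 scale, was 8.93 to 10.1 in inflamed mucosa, against 10.4 to 11.2 in normal mucosa, and its part in the changes at 2 weeks was not tested.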

How the data were processed

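RNA of mouse colorectal mucosa, dysplasia and carcinoma was measured on 18 Affymetrix Mouse Genome 430 2.0 arrays, 3 per group. The deposited values were linear intensities for 45101 probe sets; MAS5 is named per the submitters' processing notes, with no version, settings or scaling target there. The array medians lay between 55.7 and 57.8. The number of arrays limits the precision.

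The intensities were taken as log2(signal + 16). Of the probe sets, 34945 were annotated to 1 gene, 932 to several and 9160 to none, and 64 were controls. Probe sets above the table's median signal on at least 3 arrays were kept, and the one with the highest mean stood for its gene, which left 12877 genes. limma 3.58.1 (R 4.3.3) fitted all 6 groups with an intensity trend, and p-values were Benjamini-Hochberg adjusted over all genes per comparison, with a threshold of 0.05. Every adjusted p in the text is from limma unless another tool is named. The code was tested on simulated data. The p-values measure the spread between these samples, whose separate origin the labels do not detail.

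The members and lists were chosen with earlier results of these data known. Named were all 8 members, up to 3 genes per list with the largest change among those called in inflamed against normal mucosa, up to 2 in carcinoma against normal mucosa (otherwise the smallest p), and the 3 genes most correlated with each member; others are said to be named after their values were seen. Alternatives changed the pseudocount, filter, normalization, probe set rule, intensity trend, arrays fitted, replicate block and single arrays.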

Additional observations from a re-analysis of the deposited data

Results flagged for a closer look

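For all 8 genes the change at the first DSS period (inflamed minus normal mucosa) differed from that between HGD at 8 weeks and HGD at 6 weeks, by limma's test of the difference over all genes. The difference was 5.67 for Marco, 3.67 for Cd163 (3.36 at the first period and −0.31 at the later one), 2.63 for Mrc1 and 2.93 for Cd68 on the log2 scale. It was 2.50 for Msr1, 1.74 for Stab1, 1.45 for Adgre1 and 1.13 for Csf1r. Marco passed the filter on low values only through its inflamed arrays and so had to differ, and its difference of 5.67 is a description. The same test called 11.2% of all genes in that direction. The groups of 3 arrays were too small to be searched for single outlying arrays.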

How the results depend on the processing

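The calls of inflamed against normal mucosa and the differences between the DSS periods held in every alternative that measured the gene. For Marco this adds nothing wherever a filter was used, since its inflamed arrays admitted it. Without x, s and a probe sets, Adgre1 and Stab1 had no value and 6 of 6 members, Marco included, were called in both. Of 1522 recomputed values, 1460 kept direction and side of the threshold, 16 lost a call, 12 gained one and 34 changed sign. In LGD against normal mucosa, 1 member was called, which became 2 with a pseudocount of 1 or with the filter at 4 times the median signal and 0 with the mean of a gene's probe sets or with only the compared arrays (50 genes called in place of 733). Leaving out single arrays gave 0 to 2 members and 70 to 1787 genes. In HGD at 6 weeks, 0 became 3 (Cd163, Cd68 and Csf1r) with only the compared arrays (1633 genes in place of 147), and without single arrays 6 to 127 genes were called. In HGD at 8 weeks, 2 became 1 with a pseudocount of 64, no filter, the mean of probe sets or only the compared arrays (761 genes in place of 1450), and 0 to 2 without single arrays (333 to 2202 genes). In carcinoma, 0 became 0 to 1 without single arrays (8 to 287 genes in place of 116). LGD against inflamed mucosa gave 7 to 8 members without single arrays and 5 of 6 without x, s and a probe sets, Marco being in each count by the filter. The causes were not tested.

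Replicate numbers did not pair the arrays. Each array of the other groups was set against the normal array of the same number. Their deviations from group means correlated at −0.23 to 0.17, above 0.1 in 2 of 15 pairs of arrays. Over all groups, 4 of 18 arrays correlated best with their own number. With the replicate block, LGD against normal mucosa gave 2 members and 549 genes.

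Changes near 0, none of them called, changed sign when single arrays were left out. Against normal mucosa, the ranges were −0.10 to 0.30 for Mrc1 and −0.0777 to 0.26 for Stab1 in HGD at 6 weeks, −0.21 to 0.26 for Mrc1 and −0.0621 to 0.15 for Stab1 in HGD at 8 weeks, and −0.0290 to 0.30 for Adgre1 and −0.0814 to 0.34 for Mrc1 in carcinoma. In HGD at 6 weeks against LGD they were −0.26 to 0.43 for Cd68 and −0.28 to 0.0920 for Marco. In HGD at 8 weeks against HGD at 6 weeks they were −0.12 to 0.13 for Adgre1, −0.21 to 0.17 for Cd68, −0.0216 to 0.15 for Csf1r, −0.10 to 0.0089 for Marco, −0.29 to 0.13 for Mrc1 and −0.24 to 0.10 for Stab1. In carcinoma against HGD at 8 weeks they were −0.24 to 0.0502 for Adgre1, −0.17 to 0.71 for Cd163, −0.13 to 0.0199 for Csf1r, −0.0776 to 0.0304 for Marco and −0.11 to 0.32 for Mrc1. Signals near or below the table's median, as for Marco outside inflamed mucosa, limit what can be ordered there.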

Other observations

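Among the other scavenger receptors, Clec7a, the receptor for fungal beta-glucan, was higher than in normal mucosa at 3 successive later stages, by 1.74 ± 0.34 in LGD, 1.90 ± 0.34 in HGD at 6 weeks and 1.81 ± 0.34 in HGD at 8 weeks (SE, log2 scale), and its arrays did not overlap those of normal mucosa at any of them. Scarb1, a receptor for high-density lipoprotein that epithelial cells also carry, and Cxcl16, a scavenger receptor for oxidised lipoprotein that is also a chemokine, were called higher in LGD and in HGD at 8 weeks. Scarb1 was 0.84 and 0.44 higher and Cxcl16 0.71 and 0.64 higher. In carcinoma 0 of the 12 genes of the list were called by limma (0.901% of all genes), with 3 at an unadjusted p under 0.05. Scarb1 and Cxcl16 were named after their values were seen.

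Mast cell genes, another myeloid group, held 2 calls near the threshold at a stage at which 0 of the 8 macrophage genes were called. In HGD at 6 weeks, Cpa3, mast cell carboxypeptidase, was 2.21 ± 0.50 higher than in normal mucosa (limma adjusted p = 0.0495) and Mcpt2, a protease of mucosal mast cells, 5.02 ± 1.08 higher (limma adjusted p = 0.0447). These were 2 of 7 genes of the list, where limma called 1.14% of all genes in either direction. An unadjusted p under 0.05 was found for 6 of the 7 and for 4 of the 8 macrophage genes. With only the compared arrays fitted, 3 of the 8 were called. Leaving out single arrays gave 6 to 127 called genes in place of 147. Kit, the growth factor receptor of mast cells and of pacemaker cells of the gut, was called lower in LGD (−0.88) and in HGD at 8 weeks (−1.05). Mcpt2 and Kit were named after their values were seen, and no difference between the mast cell and macrophage genes was tested.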
